A study of Mus musculus with 3 samples.

Results

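Perforin, 4 proteins tied to cytotoxic granules and Fas ligand were followed through 1 pool of tumor T cells. Their genes, Prf1, Nkg7, Srgn, Ctsw, Serpinb9 and Fasl, are 6 of the 14811 genes in the table of counts and were chosen by name. Cytotoxic lymphocytes kill by 2 routes. In the first, granules are released toward the target cell: perforin (Prf1) forms pores in the target's membrane, granzymes enter and cleave proteins there, serglycin (Srgn) is the proteoglycan core on which these proteins are packed, Nkg7 is a granule membrane protein needed for efficient release, cathepsin W (Ctsw) is a cysteine protease made mainly by cytotoxic cells, and the serpin Serpinb9 inhibits granzyme B in the cytosol of the killer cell itself. In the second, Fas ligand (Fasl) on the surface binds the death receptor Fas on the target. Both routes are best known from CD8 T cells and natural killer (NK) cells, and CD4 T cells, regulatory T cells included, can use parts of them.

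The tumors were grown under the skin of mice from B16F10 cells (a mouse melanoma line), and the mice received purified congenic T cells by vein 1 day after the tumor cells. At day 11, tumors of 10 mice were pooled and 4 populations were sorted: CD4+CD8+ and CD4+ cells carrying CD45.1, from transferred CD4 T cells, and CD8+CD4+ and CD8+ cells carrying CD45.2, from transferred CD8 T cells. All were untreated. Each population got its own hashtag before all were loaded together, about 6200 cells, for 1 gene expression library that reads the 5′ end of transcripts. The T cells had an open receptor repertoire, and the labels do not tie a hashtag number to a population, so the groups used here are the authors' classes.

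The 4 classes compared were Cd8-identity Tdp (double-positive, 313 cells, 1887857 UMIs), the Cd8 class (2681 cells, 13567317 UMIs), Cd4-identity Tdp (93 cells, 574490 UMIs) and the Cd4 class (2477 cells, 10733467 UMIs). Each UMI (unique molecular identifier) marks 1 RNA molecule that was captured. Median depth per cell was 4981, 4159, 4668 and 3478 UMIs in these classes, in that order. Each of the 406 Tdp cells carried UMIs of Cd4 and of Cd8a, so deeper cells enter the Tdp classes more easily. Levels are CPM, the UMIs of a gene over those of all genes in a class, scaled to 1e6, and each class is 1 sample: there is no replicate, no test across samples, and all intervals are 95% and cover counting error only. A lower level in a class can come from fewer cells with the transcript or less of it per cell, and summed values do not tell these apart.

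The classes were not pure by transcript. Markers of macrophages (12 genes summed) were at 424 CPM for Cd8-identity Tdp, 1194 for the Cd8 class, 76.9 for Cd4-identity Tdp and 537 for the Cd4 class, and those of NK cells (7 receptor genes) at 16.5, 59.97, 6.99 and 18.6 CPM. In the Cd8 class, 93 cells had macrophage transcripts and no CD3 UMI, and 22 had NK transcripts and no CD3 UMI. Cells in which at least 2 Trbv genes (V segments of the beta chain) had 2 UMIs or more apiece, as a pair of T cells in 1 droplet would show, made up 19.2%, 12.8%, 38.7% and 9.29% of the 4 classes. Foxp3 was detected in 4.47%, 2.91%, 19.4% and 22.4% of their cells. In the 96 macrophage cells without CD3, which should lack perforin and Fas ligand and had a median of 6937.5 UMIs, Prf1 was at 2.62 CPM, Nkg7 at 23.6, Ctsw at 9.18, Serpinb9 at 11.8 and Fasl at 0, whereas Srgn was at 1392 CPM. Srgn is known to be made by macrophages too, and its values are read with that in mind.

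In the mouse genome (mm10, GRCm38), Prf1 lies at chr10:61297751-61304684, Srgn at chr10:62493833-62527445, Nkg7 at chr7:43437138-43438246, Fasl at chr1:161780691-161788495, Serpinb9 at chr13:32997061-33017955 and Ctsw at chr19:5465043-5468628. RefSeq's promoter table (GRCm38.p6) held 5 of the 6. Bases before a start site are shown for Prf1, Nkg7 and Fasl, which were higher in the Cd8 class than in the Cd4 class, and for Srgn, which ran the other way. Capitals mark matches, on either strand, to the core letters bound by RUNX factors (TGTGGT), T-box factors (GGTGTGA), ETS factors (GGAAGT), AP-1 (TGANTCA) and NFAT (GGAAAA). They come from chr10:61297586-61297750 (forward strand, the 165 bases that lie before the annotated gene, from 250 to 86 bases before the start site of the table), chr7:43436888-43437137 (forward), chr1:161788496-161788745 (reverse) and chr10:62527446-62527695 (reverse).
Prf1: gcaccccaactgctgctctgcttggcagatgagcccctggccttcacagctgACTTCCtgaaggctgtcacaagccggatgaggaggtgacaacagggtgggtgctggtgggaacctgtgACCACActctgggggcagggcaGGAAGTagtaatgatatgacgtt
Nkg7: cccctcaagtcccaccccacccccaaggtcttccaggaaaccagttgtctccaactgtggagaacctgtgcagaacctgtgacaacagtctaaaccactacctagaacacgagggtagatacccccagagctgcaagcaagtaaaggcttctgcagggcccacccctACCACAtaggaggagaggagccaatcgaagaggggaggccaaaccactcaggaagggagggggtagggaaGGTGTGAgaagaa
Fasl: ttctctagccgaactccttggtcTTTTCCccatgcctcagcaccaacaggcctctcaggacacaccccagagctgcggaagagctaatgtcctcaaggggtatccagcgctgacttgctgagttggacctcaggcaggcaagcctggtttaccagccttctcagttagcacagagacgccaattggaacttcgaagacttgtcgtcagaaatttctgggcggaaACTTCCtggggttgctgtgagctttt
Srgn: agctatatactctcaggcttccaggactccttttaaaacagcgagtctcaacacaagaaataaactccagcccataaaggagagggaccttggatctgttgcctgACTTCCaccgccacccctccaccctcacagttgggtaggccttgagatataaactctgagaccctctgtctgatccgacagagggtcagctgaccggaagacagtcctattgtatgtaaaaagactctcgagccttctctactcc

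The Prf1 stretch held 1 RUNX and 2 ETS matches. Nkg7 held 1 RUNX match and 1 T-box match that starts 13 bases before the start site. Fasl held 1 ETS and 1 NFAT match, and the stretch of Srgn shown held 1 ETS match. Another Srgn start site in RefSeq's promoter table held 1 RUNX and 1 NFAT match. Its bases lie within the annotated gene and are not shown. No AP-1 match lay in any of them. Of 32851 promoters, in 250 bases before the start, 14.0% held the RUNX letters, 3.33% the T-box letters, 19.7% the ETS letters, 6.75% the AP-1 letters and 20.4% the NFAT letters. A match is a description of the letters and not a bound site.

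Perforin had the largest ratio of the 6 genes between the Cd8 class and the Cd4 class. Cd8-identity Tdp had 55.8 CPM of Prf1 (45.7 to 67.6), the Cd8 class 51.2 (47.4 to 55.1), Cd4-identity Tdp 41.9 (26.9 to 62.4) and the Cd4 class 12.2 (10.2 to 14.5). The 3 other classes had intervals that overlap each other, and the Cd4 class lay below all of them. By hashtag number 1 to 4, Prf1 was at 34.7, 51.1, 44.8 and 75.3 CPM in Cd8-identity Tdp and at 37.0, 53.8, 55.4 and 51.2 in the Cd8 class. Cd4-identity Tdp cells had 23.2, 51.2 and 43.3 CPM under numbers 1, 2 and 4, with only 9 cells under number 3, and the Cd4 class had 9.90, 8.33, 9.97 and 27.7. The Cd4 class was lowest of the 4 under every number with at least 20 cells a class. With cells thinned to 2000 UMIs, 11.3%, 9.80%, 10.1% and 1.87% of the cells in these classes had a Prf1 UMI, against 1.09% (0.0275 to 5.91, 1 of 92 cells) of the macrophage cells. At their own depth the shares were 26.5%, 19.4%, 22.6% and 3.67% in the classes and 2.08% in the macrophage cells.

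Cells with NK genes held part of the perforin in both single classes. One cell of the Cd4 class, under hashtag number 4, had 17 Prf1 UMIs together with 11 of Ncr1 and 19 of Tyrobp, genes of NK cells, and 4 of Cd3e. The 19 Cd4 class cells with at least 2 UMIs of the NK genes, 0.767% of the class, held 23.7% of its 131 Prf1 UMIs. Without them Prf1 was at 9.49 CPM in the Cd4 class. The like cells of the Cd8 class, 84 of them or 3.13%, held 13.7% of its 692 Prf1 UMIs, and Prf1 was at 45.9 CPM without them. The 22 NK cells without CD3 had 367 CPM of Prf1, 245 of Serpinb9 and 159 of Fasl, each above the level of any class. Their Nkg7 level, 1285 CPM, was less than in either class of CD8 identity. It lay within the interval of Cd4-identity Tdp (1220 to 1409).

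Nkg7 and Ctsw followed the same order of classes. For Nkg7 the levels were 2194 CPM (2128 to 2262) among Cd8-identity Tdp cells, 2154 (2130 to 2179) over the Cd8 class, 1312 (1220 to 1409) among Cd4-identity Tdp cells and 811 (794 to 828) over the Cd4 class. The intervals of the first 2 overlapped, Cd4-identity Tdp lay below them, and the Cd4 class was lowest. By hashtag number, Nkg7 spanned 1922 to 2682 CPM for Cd8-identity Tdp, 1546 to 2460 for the Cd8 class, 1154 to 1438 for Cd4-identity Tdp (numbers 1, 2 and 4) and 789 to 900 for the Cd4 class, so the ranges of the Cd8-identity and Cd4-identity classes did not overlap. Ctsw reached 596 CPM (561 to 631), 549 (537 to 562), 407 (357 to 463) and 281 (271 to 291) in the same order of classes. Its hashtag ranges were 482 to 653, 419 to 624, 318 to 470 and 267 to 310 CPM, and those of the Cd8 class and Cd4-identity Tdp overlapped. With thinned cells, Nkg7 was detected in 95.5%, 89.2%, 67.4% and 48.2% of cells of the classes and Ctsw in 68.0%, 62.5%, 52.8% and 35.0%, against 2.17% (0.264 to 7.63) of macrophage cells for either gene. Within the Cd8 class, hashtag number 1 was lowest for Prf1, Nkg7, Ctsw, Serpinb9 and Fasl and highest for Srgn.

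Serglycin ran the other way. Its gene Srgn had 1020 CPM (975 to 1067) among Cd8-identity Tdp cells, 957 (941 to 974) over the Cd8 class, 1181 (1094 to 1274) among Cd4-identity Tdp cells and 1359 (1337 to 1381) over the Cd4 class. Under hashtag numbers 1 to 4 it was at 1110, 954, 892 and 955 CPM in the Cd8 class and at 1382, 1376, 1310 and 1280 in the Cd4 class. The lowest Cd4 class value was above the highest Cd8 class value. With thinned cells, 83.2%, 80.4%, 89.9% and 88.2% of cells of the 4 classes had a Srgn UMI, so the gene was detected in most cells of every class.

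Fas ligand stood highest in Cd8-identity Tdp. Its gene Fasl had 107 CPM (93.1 to 123) there, against 75.6 (71.1 to 80.4) for the Cd8 class, 61.2 (42.6 to 85.0) for Cd4-identity Tdp and 45.9 (41.9 to 50.1) for the Cd4 class. Under numbers 1 to 4 it was at 76.3, 102, 93.0 and 133 CPM in Cd8-identity Tdp and at 51.7, 70.4, 79.1 and 94.5 in the Cd8 class. The Tdp value was the higher of the pair under each number. Cd4-identity Tdp had 85.2, 60.5 and 57.8 CPM under numbers 1, 2 and 4, against 48.95, 40.3 and 41.5 in the Cd4 class. Under number 3, with 9 Tdp cells, the Tdp value was the lower one, at 33.4 against 54.8 CPM, and the intervals of the class totals overlap. At equal depth, 22.3% (17.8 to 27.4) of Cd8-identity Tdp cells had a Fasl UMI, 14.6% (13.2 to 16.0) of the Cd8 class, 12.4% of Cd4-identity Tdp and 7.93% of the Cd4 class, while 0 of 92 macrophage cells did, which allows a share of up to 3.93%. At their own depth the shares were 40.3%, 25.8%, 29.0% and 14.6%. Serpinb9 differed little, with 49.4, 54.7, 55.9 and 39.3 CPM in the same order, and only the Cd8 class and the Cd4 class had intervals apart. Serpinb9 has closely related copies in the mouse genome, and the sources used here do not say how reads shared between them were counted, so its values are uncertain.

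**Figure D1:**
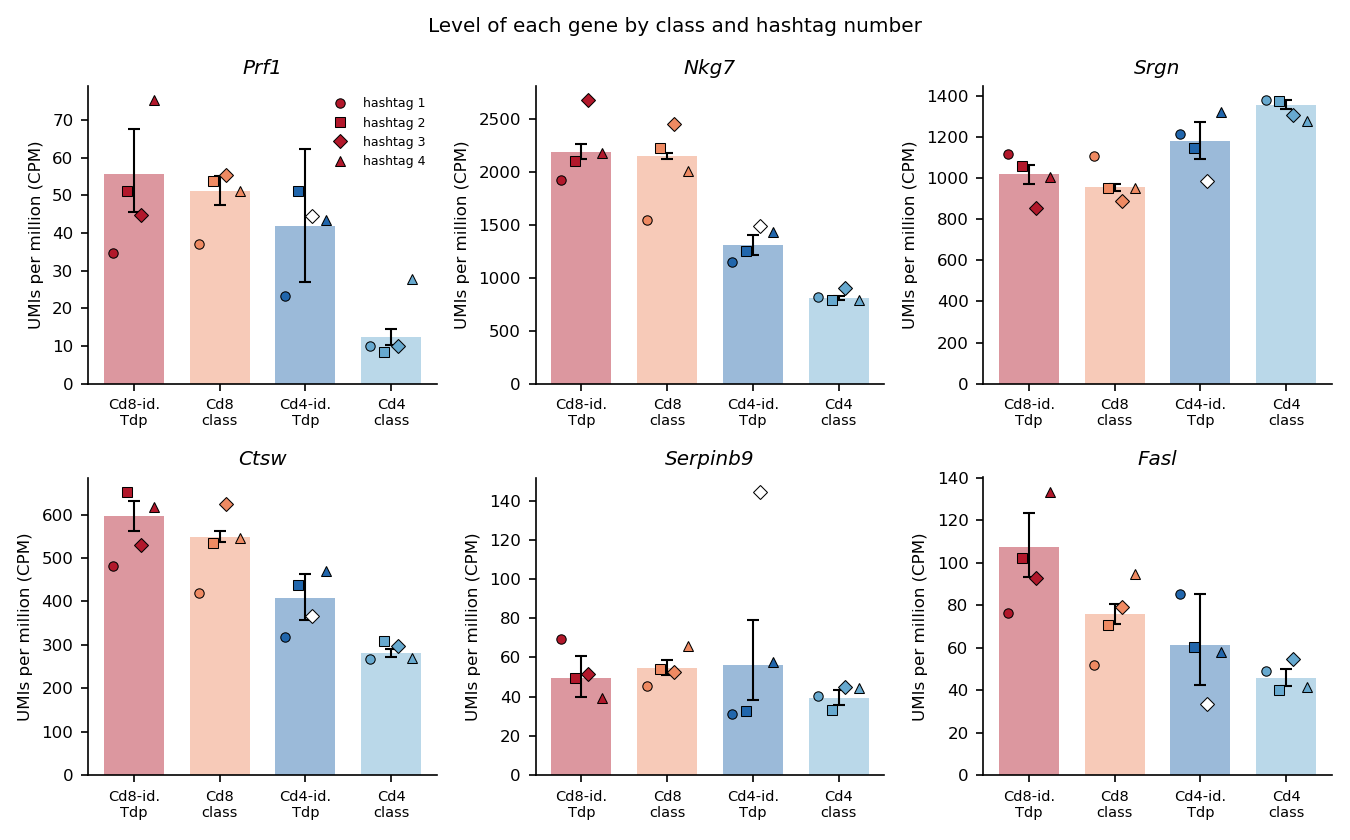
Level of the 6 genes in CPM by class; bars are the class totals with 95% counting intervals and points are the hashtag numbers 1 to 4, open where a class had under 20 cells. Prf1, Nkg7, Ctsw and Fasl are lowest in the Cd4 class and Srgn is highest there.

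For each pair of classes, a gene was counted as higher or lower at a ratio of at least 1.5-fold whose interval leaves out 1, with at least 20 UMIs over both classes. Among cells of CD8 identity, Tdp was set against the Cd8 class to ask what a second co-receptor goes with. Here none of the 6 genes was higher and none was lower, while 2.07% and 4.60% of 11040 genes were. Fasl came nearest at 1.42-fold (1.21 to 1.65). Prf1 was 1.09-fold (0.880 to 1.34), Nkg7 1.02-fold (0.986 to 1.05), Srgn 1.07-fold (1.01 to 1.12), Ctsw 1.08-fold (1.02 to 1.16) and Serpinb9 0.904-fold (0.720 to 1.12), so for each of these 5 the interval leaves out a change of 1.5-fold either way. The median log2 ratio was 0.10 over the 6 genes and 0.02 over all genes tested. Beside them Gzmb was 1.02-fold and Gzmk 1.51-fold (1.38 to 1.64), which was 1.40-fold, under the size rule, among T cells by transcript alone (at least 1 CD3 UMI and few MHC class II and macrophage UMIs, 5181 of 5564 cells).

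In Cd4-identity Tdp against the Cd4 class, Prf1 and Nkg7 were higher, 2 of 6 against 2.20% of 10602 genes, and none was lower, against 2.92%. Prf1 was 3.42-fold (2.12 to 5.32) and Nkg7 1.62-fold, with an interval that starts at the size rule and ends at 1.74. Ctsw at 1.45-fold (1.26 to 1.65), Serpinb9 at 1.42-fold (0.959 to 2.04) and Fasl at 1.33-fold (0.917 to 1.88) stayed under the size rule, and Srgn was 0.869-fold (0.803 to 0.939). Prf1, Nkg7, Ctsw and Fasl were each higher in Tdp under 3 of 3 hashtag numbers with enough cells. The interval left out 1 under 3 of these numbers for Nkg7, 2 for Ctsw, 1 for Prf1 and 0 for Fasl. The Prf1 ratio rests on 24 UMIs in the Tdp class. Beside this stands the share of cells with 2 Trbv genes, 38.7% against 9.29%: without those cells the log2 ratio was 1.34 for Prf1 and 0.90 for Nkg7, against 1.44 and 0.69 with them. Without cells holding at least 2 UMIs of macrophage, B cell or melanoma genes, Nkg7 was under the size rule (log2 ratio 0.51) and Serpinb9 passed it (0.82, against 0.46 with them). The median log2 ratio was 0.49 over the 6 genes and -0.03 over all genes.

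The Tdp classes were set against each other to ask where cells of the 2 identities differ once both co-receptors are detected. Fasl at 1.76-fold (1.22 to 2.59) and Nkg7 at 1.67-fold (1.55 to 1.81) were higher in Cd8-identity Tdp than in Cd4-identity Tdp, 2 of 6 against 3.95% of 8121 genes, and none was lower, against 3.09%. Ctsw was 1.46-fold (1.27 to 1.69) and passed the rule under 6 of 18 alternative settings, with log2 ratios of 0.47 to 0.71. Prf1 was 1.33-fold (0.848 to 2.17), Serpinb9 0.884-fold (0.586 to 1.37) and Srgn 0.863-fold (0.791 to 0.944). Fasl was under the size rule without cells with 2 Trbv genes and without hashtag number 4 (log2 ratio 0.52 and 0.56, against 0.76), and by number it was higher under 2 of 3. Of the granzymes, Gzmk was 3.27-fold (2.52 to 4.31), higher under 3 of 3 numbers, and Gzmb 0.624-fold (0.548 to 0.711). Gzmb was the lower in Cd8-identity Tdp under number 4 alone, at 350 against 1055 CPM. Under numbers 1 and 2 it was at 285 against 256 and 438 against 405 CPM. The median log2 ratio of the 6 genes was 0.46, and 0.02 over all genes.

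For the Cd8 class against the Cd4 class, 4 of the 6 genes were higher against 8.19% of 11643 genes, and none was lower, against 6.55%. Prf1 was 4.18-fold (3.46 to 5.08), Nkg7 2.66-fold (2.59 to 2.72), Ctsw 1.95-fold (1.87 to 2.04) and Fasl 1.65-fold (1.48 to 1.84), each higher under 4 of 4 hashtag numbers. For Fasl the interval left out 1 under 3 of 4, and number 1 had 51.7 against 48.95 CPM. The Fasl ratio was under the size rule without Foxp3 cells (log2 ratio 0.47, against 0.66), which are 2.91% of the Cd8 class and 22.4% of the Cd4 class. Serpinb9 was 1.39-fold (1.23 to 1.57). Srgn was 0.705-fold (0.688 to 0.721), lower under 4 of 4 numbers. Over 18 alternative settings the Srgn log2 ratio ran from -0.59 to -0.295, against -0.50 in all cells. It passed the rule in 1 of them, with T cells by transcript alone, at -0.59. Macrophage markers were higher in the Cd8 class for 12 of 12 genes, and NK receptor genes for 7 of 7. The 6 genes had a median log2 ratio of 0.81, and all genes one of -0.01. Gzmb, the granzyme that Serpinb9 inhibits, was 0.548-fold (0.529 to 0.568), and Gzmk 3.01-fold (2.79 to 3.25). Among T cells by transcript, Gzmb was at 400 CPM in the Cd8 class. In the Cd4 class it was at 2102 CPM in Foxp3-positive and 333 in Foxp3-negative cells, so it was not lower in the Cd8 class than in the Foxp3-negative cells. The comparison shares its classes with the Tdp comparisons, so the 4 sets of ratios are not independent of each other.

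**Figure D2:**
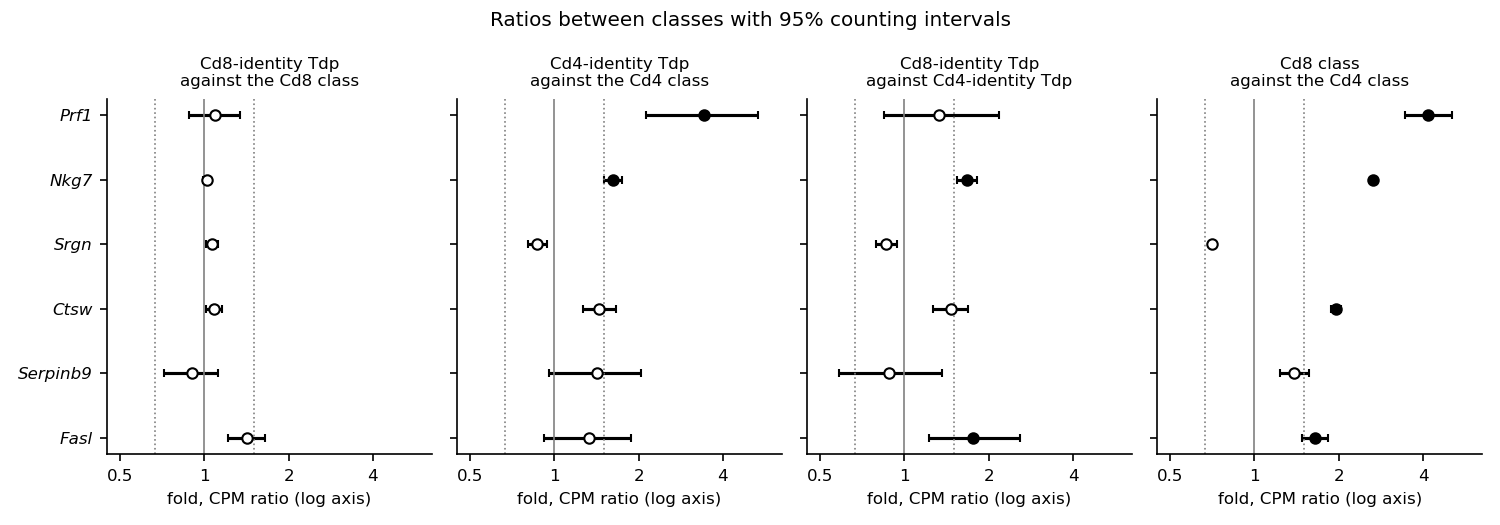
Ratio of CPM for the 6 genes in the 4 comparisons of classes, on a log axis, with 95% counting intervals; filled points pass the rule of 1.5-fold (dotted lines). Filled points are Prf1 and Nkg7 in the second panel, Nkg7 and Fasl in the third, and Prf1, Nkg7, Ctsw and Fasl in the fourth.

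Whether these genes were found in the same cells as a granzyme was read per cell, after thinning every cell to 2000 UMIs, which kept 309 cells of Cd8-identity Tdp, 2500 of the Cd8 class, 89 of Cd4-identity Tdp and 2245 of the Cd4 class. In the Cd8 class, 4 of the 6 genes were found in a larger share of Gzmb-positive than of Gzmb-negative cells, in that the 2 intervals did not overlap. Of all genes found in at least 20 of these cells, 3.88% passed the same rule. Fasl was in 23.4% (20.1 to 26.9) of the 612 Gzmb-positive cells and 11.8% (10.3 to 13.3) of the 1888 negative cells. By Gzmb UMIs, Fasl was in 21.1% of cells with 1, 25.4% with 2 to 3 and 25.2% with 4 or more. Prf1 was in 13.4% against 8.63%, Serpinb9 in 13.1% against 7.68%, and Nkg7 in 95.9% against 87.0%. Srgn (82.4% against 79.8%) and Ctsw (66.99% against 61.1%) had intervals that overlapped. Around Gzmk, 3 genes had a larger share in positive cells of the Cd8 class, beside 3.29% of all genes: Fasl in 20.2% of 688 positive cells against 12.5% of 1812 negative cells, Prf1 in 12.6% against 8.72% and Nkg7 in 97.4% against 86.0%.

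Cells of the Cd8 class with neither granzyme, 1466 in all, still held the members often: Nkg7 was in 84.1% of them, Ctsw in 59.5%, Fasl in 10.2% (8.73 to 11.9) and Prf1 in 7.64% (6.33 to 9.12). Fasl was in 25.2% (20.1 to 30.9) of the 266 cells with both granzymes, 22.0% of those with Gzmb only and 17.1% of those with Gzmk only. Prf1 was in 13.5%, 13.3% and 12.1% of these 3 groups, whose intervals overlap. Detection of perforin and of Fas ligand did not differ with each other beyond counting error: 15.9% (11.6 to 21.1) of Prf1-positive and 14.5% (13.0 to 16.0) of Prf1-negative Cd8 class cells had a Fasl UMI. Nkg7 and Ctsw went together, with Ctsw in 67.8% of 2229 Nkg7-positive and 19.2% of 271 Nkg7-negative cells of the Cd8 class. In the Cd4 class these shares were 49.3% and 21.7%, with intervals apart. In Cd8-identity Tdp they were 69.2% and, in 14 Nkg7-negative cells, 42.9%, with intervals that overlap. Cells without T cell transcripts are among the negative cells, and the Cd8 class had 93 macrophage cells without CD3.

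In the Cd4 class, 3 genes had a larger share in Gzmb-positive cells, beside 4.30% of all genes: Prf1 in 3.91% (2.55 to 5.72) of 639 positive cells against 1.06% (0.618 to 1.69) of 1606 negative cells, Nkg7 in 57.4% against 44.5% and Srgn in 92.5% against 86.5%. The interval of the Prf1 share in macrophage cells, 0.0275 to 5.91%, covers both of these Prf1 shares. It is too wide to tell whether either share lies above the macrophage level, and a part of free RNA was not tested. Around Gzmk, 2 genes had a larger share, beside 1.55% of all genes: Nkg7 was in 86.4% of 191 positive cells against 44.6% of 2054 negative cells, and Ctsw in 57.6% against 32.9%. Fasl was in 12.6% against 7.50%, with intervals that overlap. Around Gzmb, Ctsw was in 33.8% of Gzmb-positive cells and 35.4% of Gzmb-negative cells. In the Tdp classes none of the 6 genes reached the rule around either granzyme. In Cd8-identity Tdp 0.539% of all genes did around Gzmb and 0.759% around Gzmk, and in Cd4-identity Tdp, where 3 of the 6 were found in at least 20 cells, 0.504% and 0.252% did. With 76 Gzmb-positive cells in Cd8-identity Tdp, Fasl was in 17.1% (9.43 to 27.5) of them and in 24.03% (18.7 to 30.0) of the negative cells. With 38 in Cd4-identity Tdp, Nkg7 was in 84.2% (68.7 to 94.0) of them and in 54.9% (40.3 to 68.9) of the negative cells, intervals that overlap between 68.7 and 68.9%. Without cells with NK genes these intervals were apart.

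**Figure D3:**
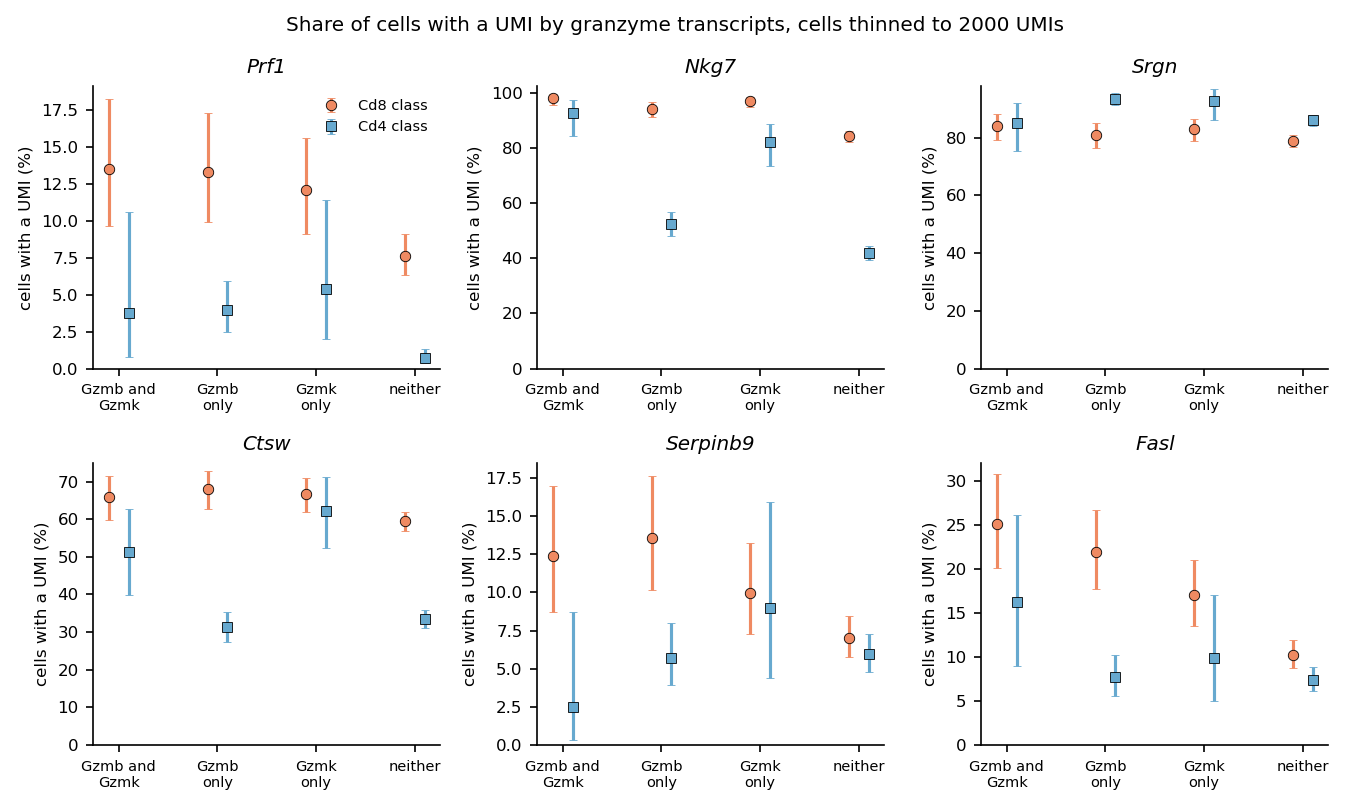
Share of cells with a UMI of each gene, in percent, by granzyme transcripts in the Cd8 class and the Cd4 class, cells thinned to 2000 UMIs, with exact 95% intervals. In the Cd8 class the cells with neither granzyme have the lowest share of Fasl, 10.2%, and in the Cd4 class Nkg7 and Ctsw are detected more often in both groups with Gzmk than in the group with Gzmb only.

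How many of the 6 genes a cell showed at equal depth differed between the identities at the median, but the classes overlapped. Exactly 2 genes were found in 26.9% of Cd8 class cells and in 33.1% of Cd4 class cells. The median cell of Cd8-identity Tdp and of the Cd8 class had 3 of the 6, and the median cell of Cd4-identity Tdp and of the Cd4 class had 2. At least 1 gene was found in nearly every cell: 0.324% of Cd8-identity Tdp cells, 2.20% of the Cd8 class, 3.37% of Cd4-identity Tdp and 4.01% of the Cd4 class had none. All 6 were seen in 4 of 2500 Cd8 class cells and in no cell of the other classes, where 0 of 309, 0 of 89 and 0 of 2245 cells allow exact upper bounds of 1.19%, 4.06% and 0.164%.

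Cells with Foxp3, the defining factor of regulatory T cells, had more Srgn and less Nkg7, Ctsw and Fasl than other cells of the Cd4 class, among T cells by transcript. The comparison was chosen after the data were seen. The 522 Foxp3-positive cells had 2186 CPM of Srgn against 1137 in 1858 Foxp3-negative cells, 1.92-fold (1.85 to 1.99). They had 2102 CPM of Gzmb against 333, 6.31-fold (6.01 to 6.63). Nkg7 was at 578 CPM against 928, 0.622-fold (0.585 to 0.662), Ctsw at 153 against 335, 0.458-fold (0.406 to 0.515), and Fasl at 17.6 against 56.8, 0.310-fold (0.214 to 0.436). Thus 3 of the 6 genes were lower, where 8.21% of 10146 genes were, and Srgn and Prf1 were higher, where 9.58% were. Srgn was higher and Ctsw and Fasl lower under 4 of 4 hashtag numbers, and Nkg7 lower under 3 of 4. The Nkg7 log2 ratio of -0.68 was under the size rule without hashtag number 1 (-0.51) and without cycling cells (-0.58), and cell cycle genes were at 510 CPM in Foxp3-positive and 1108 in Foxp3-negative cells. The Prf1 ratio, 21.5 against 11.0 CPM or 1.95-fold (1.32 to 2.84), included the cell with 17 UMIs, and Prf1 was not counted as higher without cells with NK genes, without hashtag number 4 or without cells that hold markers of other cell types (log2 ratio 0.30, 0.38 and -0.08, against 0.73). Serpinb9 was at 34.7 against 42.8 CPM. The median log2 ratio was -0.47 over the 6 genes and -0.01 over all genes.

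Within Foxp3-positive cells, Srgn was in 97.2% of 290 Gzmb-positive and 97.0% of 164 Gzmb-negative cells, and none of the 6 genes had a larger share around Gzmb, beside 0.510% of all genes. Within Foxp3-negative cells of the Cd4 class 3 did, beside 2.04% of all genes: Nkg7 was in 77.2% (72.2 to 81.6) of 324 Gzmb-positive cells and 47.5% (44.9 to 50.2) of 1385 negative cells, Fasl in 14.5% against 8.30% and Prf1 in 3.70% against 0.794%. The larger share of Srgn around Gzmb in the whole Cd4 class was not seen in either group alone: it was 88.0% against 85.6% in Foxp3-negative cells, with overlapping intervals. Cd4 class cells with CD8 transcripts (302 cells) had 1209 CPM of Nkg7 and 20.4 of Prf1, against 792 and 11.9 in 2078 cells without them.

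In the Cd8 class, none of the 6 genes passed the rule between Pdcd1-positive and Pdcd1-negative cells, and Prf1 levels did not differ beyond counting error. Pdcd1 encodes the inhibitory receptor PD-1. The 1145 T cells by transcript with a UMI of Pdcd1 were set against 1270 without one, a comparison also chosen after the data were seen. None of the 6 was higher, where 2.82% of 10163 genes were, and none was lower, where 2.17% were. Serpinb9 was at 66.3 CPM in Pdcd1-positive cells against 44.9 in Pdcd1-negative cells, 1.48-fold (1.26 to 1.74), just under the size rule, and Fasl was at 98.7 against 73.3 CPM, 1.35-fold (1.18 to 1.53). Nkg7 was at 2696 against 2246 CPM, 1.20-fold (1.17 to 1.23), Srgn at 964 against 837 CPM, 1.15-fold (1.11 to 1.20), and Ctsw at 649 against 613 CPM, 1.06-fold (1.01 to 1.11). The intervals of these 5 ratios left out 1. Prf1 was at 56.9 against 56.5 CPM, 1.01-fold (0.862 to 1.18), an interval that covers 1. Gzmb passed the rule, at 484 against 310 CPM, 1.56-fold (1.47 to 1.66). Within hashtag numbers, Fasl, Serpinb9, Nkg7, Srgn and Ctsw were higher in Pdcd1-positive cells under 4 of 4 and Prf1 under 2 of 4. NK receptor genes were at 31.0 against 66.2 CPM, cell cycle genes at 1383 against 1012 CPM, and the median cell had 4292 UMIs against 3886.5 in these groups. Over 15 alternative settings, among them leaving out cycling cells or cells with NK genes and thinning cells to one depth, the log2 ratio stayed at 0.24 to 0.29 for Nkg7, 0.35 to 0.50 for Fasl and -0.07 to 0.12 for Prf1. Serpinb9 passed the rule without cycling cells, without cells with NK transcripts and with cells thinned to 2000 UMIs (log2 ratio 0.57, 0.68 and 0.57, against 0.52). The median log2 ratio was 0.23 over the 6 genes and 0.02 over all genes.

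**Figure D4:**
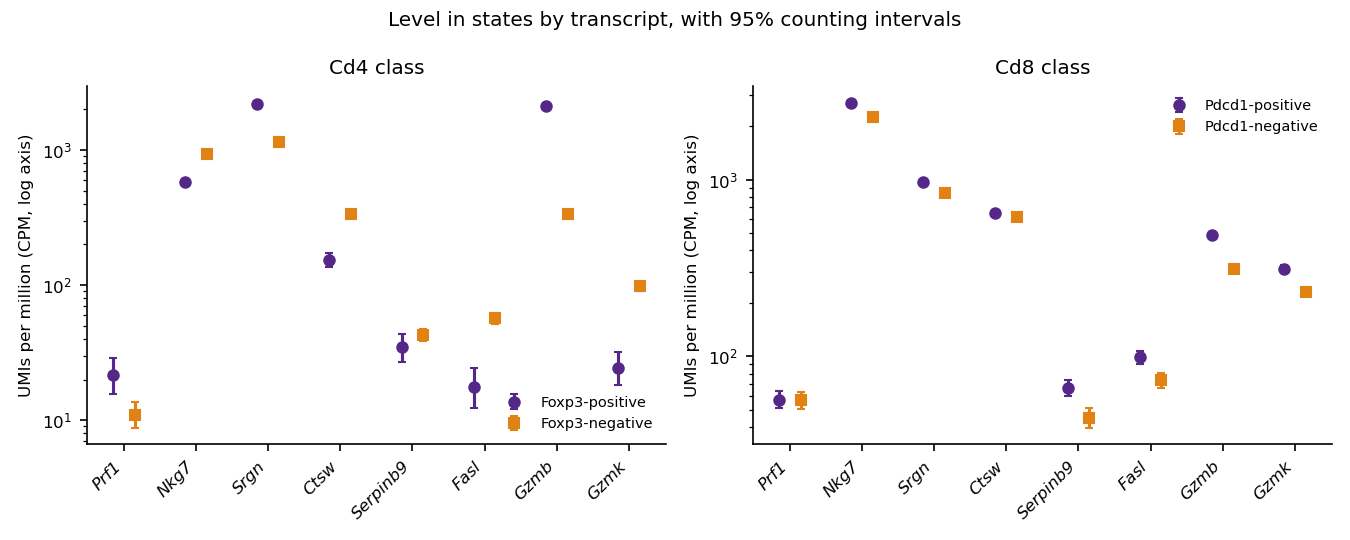
Level in CPM, on a log axis, of the 6 genes and 2 granzymes in Foxp3-positive and Foxp3-negative cells of the Cd4 class (left) and in Pdcd1-positive and Pdcd1-negative cells of the Cd8 class (right), with 95% counting intervals. Srgn and Gzmb are higher and Nkg7, Ctsw, Fasl and Gzmk lower in Foxp3-positive cells, and Prf1 and Ctsw have overlapping intervals in the right panel.

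The rest of the killing pathway was read from 5 gene lists. In the Cd8 class against the Cd4 class, the median log2 ratio was 0.67 for granzymes, 0.47 for granule proteases and their inhibitors, -0.04 for granule transport, -0.18 for the Fas pathway and -0.05 for regulators, beside -0.01 for all genes. Of 5 granzymes measured, 3 were higher in the Cd8 class than in the Cd4 class, beside 8.19% of all genes: Gzmm at 9.25-fold, Gzmk at 3.01-fold and Gzma at 1.61-fold. Gzmb was lower, beside 6.55% of all genes, with Foxp3 cells counted in the Cd4 class. Gzmm was also higher in Cd4-identity Tdp than in the Cd4 class, at 10.5 against 2.15 CPM or 4.88-fold (1.62 to 12.3). Gzmc was lower in both Tdp classes than in their single classes, at 1.06 against 18.7 CPM in Cd8-identity Tdp and at 0 against 21.9 CPM in Cd4-identity Tdp, where the 0 of 574490 UMIs allows a ratio of up to 0.297. Of 11 granule proteases and their inhibitors, 5 were higher in the Cd8 class than in the Cd4 class, beside 8.19% of all genes. Among them were Ctsh at 2.50-fold, Ctsl at 2.21-fold and Cst7 (cystatin F, an inhibitor of granule cathepsins) at 1.88-fold. Serpinb1a was lower at 0.125-fold (0.102 to 0.154), beside 6.55% of all genes. In Cd8-identity Tdp against the Cd8 class, Ctsh, Ctss and Ctsc were lower at 0.580-, 0.649- and 0.652-fold, and Serpinb1a was higher at 1.68-fold (1.05 to 2.60). Between the Tdp classes, Ctsh was higher in Cd8-identity Tdp at 1.90-fold (1.05 to 3.71) and Serpinb1a lower at 0.264-fold (0.150 to 0.461). Cathepsins are also made by macrophages, and the ratios of Ctsh, Ctsl, Ctss and Ctsc given here did not hold among T cells by transcript alone. There Ctsh was at 1.09-fold (0.562 to 2.14) and Ctsl at 1.41-fold (0.817 to 2.47) in the Cd8 class against the Cd4 class, while Cst7 was at 2.04-fold and Serpinb1a at 0.110-fold. In Cd8-identity Tdp against the Cd8 class Ctss was then at 0.963-fold and Ctsc at 1.02-fold, and Ctsh turned round, to 4.98-fold (2.50 to 9.73), on 17 against 23 UMIs. Between the Tdp classes Ctsh had too few UMIs left to be measured. In Cd4-identity Tdp the inhibitor Serpinb6b was higher than in the Cd4 class, at 1.98-fold (1.48 to 2.60).

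Of 17 genes of granule transport and release, 1, Lyst (a regulator of lysosome size), was higher in the Cd8 class than in the Cd4 class at 1.55-fold and none was lower, where 8.19% and 6.55% of all genes were. Ap3b1, an adaptor subunit for sorting to granules, was higher in Cd4-identity Tdp than in the Cd4 class at 115 against 76.7 CPM, Lamp2 and Stx7 were lower in Cd8-identity Tdp than in the Cd8 class at 0.634- and 0.660-fold, and none passed the rule between the Tdp classes. Among T cells by transcript, Lamp2 was at 0.761-fold (0.563 to 1.01) and Stx7 at 1.20-fold (0.817 to 1.72) in that comparison of Cd8-identity cells, and neither passed the rule. Of 12 genes of the Fas and death receptor pathway, Bid, which carries the death signal to mitochondria, was higher in the Cd8 class than in the Cd4 class at 1.85-fold and the cytokine Lta lower at 0.414-fold. Lta was lower in both Tdp classes than in their single classes, at 0.629-fold in Cd8-identity Tdp and 0.399-fold in Cd4-identity Tdp, and Tnf was 0.569-fold (0.340 to 0.896) in Cd4-identity Tdp. Fas itself was higher in Cd8-identity Tdp than in Cd4-identity Tdp at 1.83-fold (1.05 to 3.40), and in Foxp3-positive than in Foxp3-negative cells of the Cd4 class at 1.78-fold (1.40 to 2.26), where Fasl was lower. Bid (2.04-fold) and Tnfrsf10b, a death receptor (2.67-fold), were higher there too.

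Of 15 regulators of cytotoxic genes, Eomes, a T-box factor of cytotoxic cells, was at 51.6 CPM in the Cd8 class against 4.30 in the Cd4 class, 12.0-fold (8.90 to 16.6), and at 40.9 in Cd8-identity Tdp against 10.5 in Cd4-identity Tdp, 3.91-fold (1.71 to 11.0). Zeb2 was higher in the same 2 comparisons, at 1.78- and 3.23-fold, and lower in each Tdp class than in its single class, at 0.599- and 0.330-fold, which in all 4 comparisons is the direction of the summed macrophage markers. Among T cells by transcript Zeb2 passed the rule in none of the 4, at 1.17-fold (0.882 to 1.56) in the Cd8 class against the Cd4 class and 1.06-fold (0.615 to 1.72) in Cd8-identity Tdp against the Cd8 class, with 1 UMI left in Cd4-identity Tdp. Zfp683, Prdm1 and Bhlhe40 were lower in the Cd8 class than in the Cd4 class at 0.338-, 0.490- and 0.618-fold. Zfp683 was higher in Cd8-identity Tdp than in the Cd8 class at 1.84-fold (1.08 to 3.00), on 21 UMIs, and Irf4 was lower at 0.340-fold, on 6 UMIs.

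Across the 15 groups of class and hashtag number with at least 20 cells, the levels of Nkg7 and Ctsw were most alike among the members, with a Pearson r of 0.94 on the log2(CPM + 5) scale. Srgn ran against Nkg7, with r of -0.92. Among 5773 genes, the patterns most like Prf1 were Cd160, Klrd1, Ccl5, Cd8a and Ctsw (r 0.88 to 0.87), and those most like Nkg7 were Ccl5, Rasgrp2, Slamf7, Cd8b1 and Ctsw (0.97 to 0.94). Those most like Ctsw were Nkg7, Cd160, Ccl5, Ugcg and Cenpv (0.94 to 0.91). Srgn was most like Hif1a, Foxp3, Il2ra, Tnfrsf4 and Ly6e (0.97 to 0.95), of which Foxp3, Il2ra and Tnfrsf4 are regulatory T cell genes. Fasl (Gtf2i, B4galnt1, Serpinb6b, Rnf138 and Saraf, 0.83 to 0.81) and Serpinb9 (Bid, Actn1, Vamp7, Dnajc9 and Eif2a, 0.87 to 0.78) had weaker neighbours. These groups come from 1 library and 4 classes, so the values describe this pool and mostly order the classes.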

How the data were processed

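Gene expression was measured in hashtagged T cells pooled from 10 mice, in 1 droplet library. The authors deposited a table of raw UMI counts by gene and cell, and an annotation giving each cell's hashtag number, identity and class. The submitters' processing notes name Cell Ranger 3.1.0, Seurat 3.2.3 and mm10. The filter on cells, the removal of doublets and the rule for classes are not stated in the sources used here. Hashtag, antibody and receptor data were not used here. The 6 genes, the gene lists and the rules for counting and naming genes were chosen with earlier results of these data known.

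UMIs were summed over the cells of each class. The total left out 117 receptor and immunoglobulin genes (0.325% of 26763131 UMIs). The median cell had 3869 UMIs. Intervals are at 95% and cover counting error only: exact Poisson for a level, conditional binomial for a ratio, Clopper-Pearson for a share. Log2 ratios took a pseudocount of 5 CPM, and folds took none. Ratios were computed for every gene with at least 20 UMIs over both groups, and the step was tested on simulated data. With 1 sample per class no p-value was computed. Hashtag numbers are parts of 1 pool in which each sorted population had its own hashtag. They are not replicates, so agreement across them does not repeat a result. They were used where both groups had at least 20 cells. The share of all genes that passed the co-detection rule was taken over genes found in at least 20 of the thinned cells. T cells by transcript had at least 1 UMI of Cd3d, Cd3e or Cd3g, under 5 UMIs over 3 MHC class II genes (H2-Aa, H2-Ab1 and H2-Eb1) and under 5 UMIs over 12 macrophage genes; this choice, the ratios of pathway genes among these cells, the states compared and leaving out NK cells with CD3 were made after the data were seen. NK cells had at least 2 UMIs over 7 NK receptor genes. No doublet caller was run and cells were not clustered. From each pathway list, up to 3 of the highest and 3 of the lowest genes past the rule are named for the comparisons of classes; 1 such gene is not reported here. Genes most like a member were ranked by Pearson r among genes with at least 500 UMIs. Alternatives were a total over all genes, TMM scaling (edgeR 4.0.16), the mean of per-cell CPM, cells thinned to fewer UMIs or left at their own depth, 2 UMIs of the granzyme, a UMI minimum of 100, pseudocounts of 1 and 20 CPM, and leaving out 1 hashtag number or cells of several kinds. Python 3.11.15, numpy 2.4.6, scipy 1.17.1 and pandas 2.3.3 were used.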

Additional observations from a re-analysis of the deposited data

How the results depend on the processing

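Of 242 alternative counts, 222 stayed within 1.5 times the count reported and 20 did not; of the alternative log2 ratios of single genes, 541 stayed within the counting interval, 64 did not, and 1 of a gene past the rule changed sign, as did 18 of genes under the rule. Prf1 and Nkg7 in the Cd8 class against the Cd4 class, and Prf1 in Cd4-identity Tdp against the Cd4 class, passed the rule under each of 18 settings, with log2 ratios from 1.14 to 2.06, 1.29 to 1.65 and 0.94 to 2.18. Among these settings are the pseudocounts of 1 and 20 CPM, which alter the log2 ratio alone. The rule uses folds without a pseudocount, so those settings could not change a call. Cells with 2 Trbv genes left out, 1 gene (Nkg7) rather than 2 was higher in Cd8-identity Tdp than in Cd4-identity Tdp. Among T cells by transcript, 1 gene (Srgn) rather than 0 was lower in the Cd8 class than in the Cd4 class. In Foxp3-positive cells 1 gene (Srgn) rather than 2 was higher without hashtag number 4, without cells with NK transcripts and without cells with UMIs of other cell types, and in the last the log2 ratio of Prf1 was -0.0838. In Pdcd1-positive cells 1 gene (Serpinb9) rather than 0 was higher by the mean of per-cell CPM, with cells thinned to 2000 UMIs, without hashtag number 3 or 4, and without cycling cells, cells with NK transcripts or cells that hold markers of another type. Around Gzmb, with cells at their own depth, 2 genes had the larger share in Cd8-identity Tdp and 1 in Cd4-identity Tdp, where 1 gene also did without cells with NK transcripts, each against 0. Around Gzmk at own depth the Cd8 class and the Cd4 class had 6 genes each, against 3 and 2, Cd8-identity Tdp had 1 and Cd4-identity Tdp 2, each against 0, and with 2 UMIs of the granzyme the Cd4 class had 4. The cause was not tested. Fasl, Prf1 and Serpinb9 rest on 24 to 35 UMIs in Cd4-identity Tdp, which limits their ratios. No paired analysis was possible because all classes come from 1 library of 1 pool.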
